A study of Rattus norvegicus with 15 samples.

Results

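The 95 genes described here had a higher mean log2 intensity after 18 h without glial cell line-derived neurotrophic factor (GDNF) than in control cultures, by at least 0.5, and a lower one after 8 h of GDNF return than after withdrawal, also by at least 0.5. They were chosen among 9002 named genes, each represented by 1 probe set, and both thresholds together were met by 108 of these (1.2%). Of the 108, 13 were left out by name: members of the Slc, Hsp, Crip, Krt and Rp symbol groups (Hspa1a, Hspb6, Crip1, Crip2, Slc24a4, Slc14a2, Krt12 and Rpp25) and 5 single genes (Foxo3, Bik, Rac2, Atoh8 and Hey1). The genes were thus chosen by the intensities of the control, withdrawal and 8 h arrays, so every value that sets 1 of these groups against another is given as a description without a test.

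The cells were spermatogonial stem cells of the rat, which sustain sperm production in the testis, and had been in serum-free culture with GDNF for 1 month before any treatment. The 5 groups were control cultures that kept GDNF, cultures deprived of GDNF for 18 h, and cultures deprived for 18 h and then given GDNF again for 2, 4 or 8 h, each with 3 arrays from independent cultures. RNA came from whole cultures, so fewer cells of a type and less RNA per cell cannot be told apart. Cultures left without GDNF up to the times of return are not analysed here, so the return of GDNF and the added time in culture cannot be told apart either.

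GDNF binds the co-receptor GFRA1 and the receptor tyrosine kinase RET, which activate the PI3K-AKT and RAS-ERK pathways. In cultures of rodent spermatogonial stem cells this signal is needed for self-renewal. Loss of AKT signalling is known in many cell types to activate FOXO factors and the growth arrest and stress genes they drive. ETS transcription factors, among them Etv5, act downstream of GDNF in mouse spermatogonial stem cells.

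The share of all probe sets with an intensity of at least 16, the low-value level (4 on the log2 scale), was 50.1% to 50.4% on every array, and precision is limited by how many arrays there are. Of 20 listed genes of undifferentiated spermatogonia and germ cell identity 11 were tested, and their mean log2 intensity was 10.301 ± 0.096 in control cultures, 9.847 ± 0.122 after withdrawal, 10.001 ± 0.025 at 2 h, 10.207 ± 0.056 at 4 h and 10.149 ± 0.040 at 8 h (SD, n = 3 each). Bcl6b differed most in that list, at -3.29 for withdrawal minus control. The median of the 11 genes was -0.25, and 4 of the 11 were higher after withdrawal. Markers of mesenchymal cells such as fibroblasts or feeders were also present, with 12 of 20 tested. Their mean log2 intensity was 8.47 ± 0.22 in control cultures, 8.41 ± 0.42 after withdrawal, 7.92 ± 0.12 at 2 h, 8.19 ± 0.26 at 4 h and 8.61 ± 0.13 at 8 h. Their summed intensity ranged over the arrays from 5399 to 7100 in control cultures, 3949 to 6485 after withdrawal, 3652 to 4088 at 2 h, 3951 to 5327 at 4 h and 5823 to 6999 at 8 h. The first withdrawal array had a mesenchymal mean of 7.93, below the 8.63 and 8.67 of the other 2. Of the Sertoli list 8 of 14 were tested, several of them genes that many cells express (Clu, Ctsl, Tjp1), while 1 of 11 Leydig or peritubular markers (Acta2) and 1 of 12 immune or blood markers (Cd3e) passed the low-value filter. None of the 95 genes is on the mesenchymal list.

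As a group the 95 genes changed by modest amounts. Averaged over the 95 genes, log2 intensity was 6.36 ± 0.05 in control cultures, 7.06 ± 0.05 after withdrawal, 6.59 ± 0.01 at 2 h, 6.29 ± 0.05 at 4 h and 6.29 ± 0.02 at 8 h (SD over 3 arrays each). The median log2 difference of withdrawal minus control was 0.67 (range 0.50 to 1.43), against 0.02 over all 9002 genes, which is 1.6-fold at the median. The median of 8 h minus withdrawal was -0.72 (range -1.44 to -0.50), against -0.04 over all genes. These medians follow from the rule that chose the genes. A difference of at least 2-fold between withdrawal and control was reached by 4 genes (Fam120c, Ddah1, Rin2 and Gas6), of which Fam120c was under the low-value level on all control arrays, and with values under 16 set to 16 its difference was 1.44-fold. Between withdrawal and 8 h, 15 genes differed by at least 2-fold.

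On single arrays 92 of the 95 genes had all 3 withdrawal arrays above all 3 control arrays, against 22.2% of all 9002 genes, and 92 had all 8 h arrays below all withdrawal arrays, against 29.6%. The rule used the means of these groups, so nothing is read from either count. The exceptions were Vsir, Mccc1 and Cryl1 for withdrawal over control, and Vsir, Mccc1 and Rcn3 for 8 h under withdrawal. Vsir, which encodes the immune checkpoint receptor VISTA, had 34.5, 29.6 and 35.1 in control cultures, 61.4, 62.4 and 34.5 after withdrawal, 32.96, 32.4 and 36.2 at 2 h, 31.04, 19.5 and 27.4 at 4 h, and 36.5, 16.6 and 30.5 at 8 h. Withdrawal array number 3 lay within the control range, and its second 8 h array stood apart below the other 2. Mccc1, a subunit of a leucine-breakdown enzyme, read 53.4, 45.3 and 27.1 after withdrawal and 34.4, 21.7 and 29.6 in control cultures, so that 1 withdrawal array lay among the controls. Rcn3, a calcium-binding protein of the endoplasmic reticulum, read 46.2, 42.4 and 21.5 at 8 h and 43.8, 52.1 and 60.5 after withdrawal, with the first 8 h array inside the withdrawal range. Genes close to the threshold are borderline by construction. Just inside lay Cryl1 (smaller of the 2 changes 0.50), Mfsd4b1 (0.50), Ptpru (0.51) and Cdkn2d (0.51), and just outside lay Plaat3, Crim1, Eaf2 and Apba2, each at 0.50 after rounding.

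**Figure D1:**
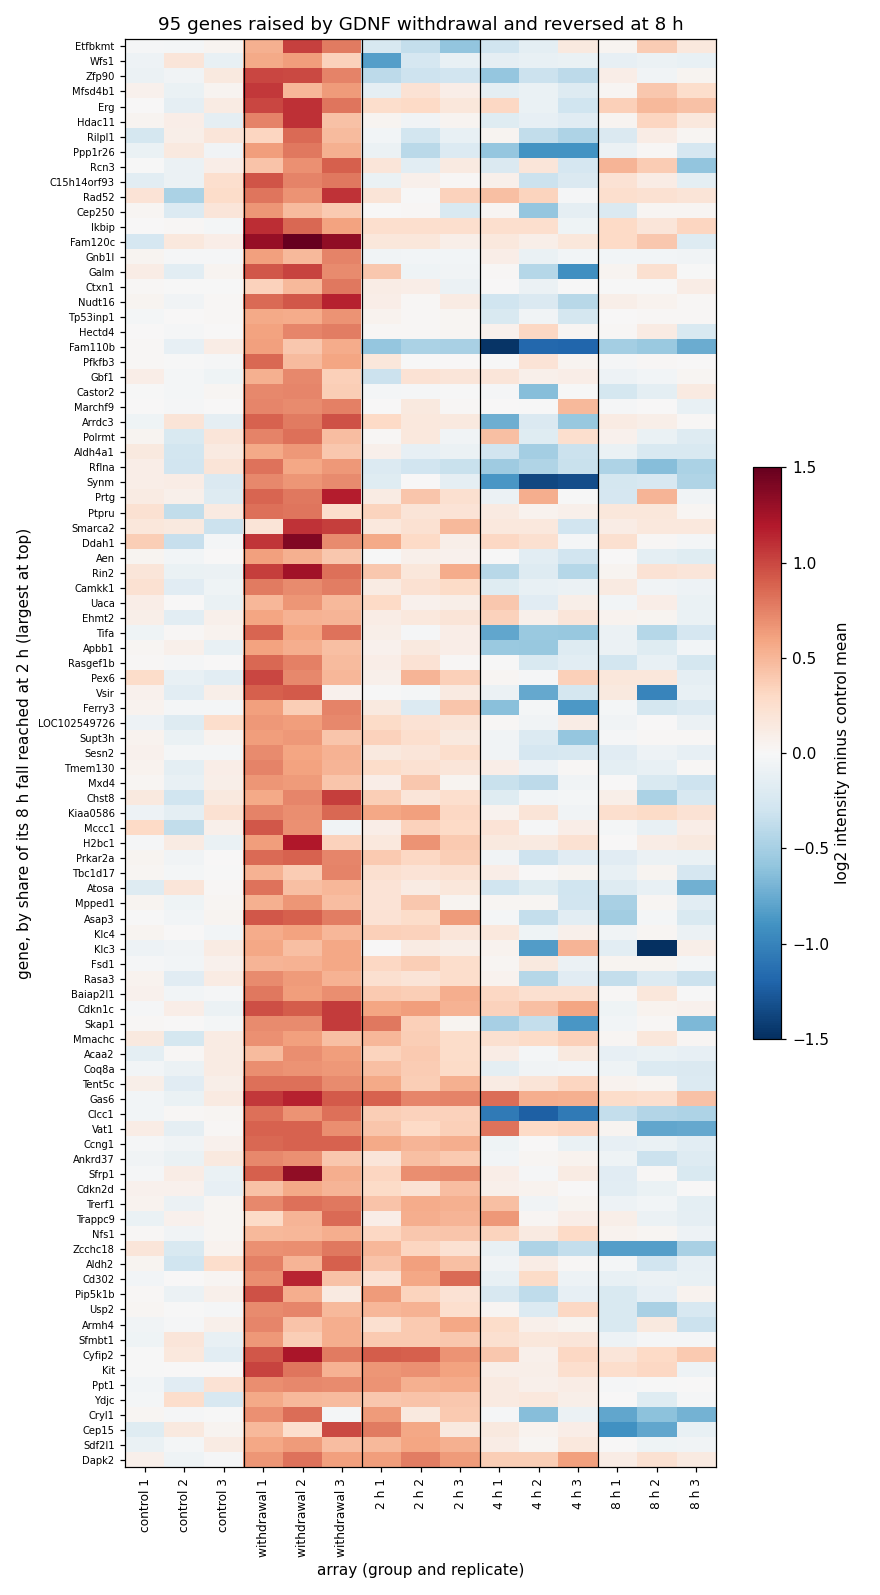
Log2 intensity of each of the 95 genes (rows) on each of the 15 arrays (columns), minus the gene's mean over the control arrays; red is higher and blue lower than that mean, and colours stop at -1.5 and 1.5. Rows run from the largest to the smallest share of the 8 h difference already present at 2 h: upper rows are pale or blue at 2 h, while the lowest rows, down to Dapk2, are still red at 2 h.

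The 95 genes were sorted by hand into roles by textbook knowledge, and the sizes of the roles were not compared with those among all genes. Growth arrest, p53-linked and mTORC1-restraining genes, a mixed group, were 10 of the 95. They were the cell cycle inhibitors Cdkn1c and Cdkn2d, the cyclin gene Ccng1, the MYC antagonist Mxd4, and the mTORC1-restraining genes Sesn2 and Castor2. The others were the p53-induced genes Tp53inp1 and Aen, the death-associated kinase gene Dapk2, and Uaca, whose product binds the apoptosome protein APAF1. Withdrawal minus control ranged from 0.51 to 0.97 (log2) in these genes and 8 h minus control from -0.17 to 0.16. Cdkn1c and Ccng1 had the largest changes.

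Cdkn1c encodes the imprinted cyclin-dependent kinase inhibitor p57, and its intensity was 111, 120.1 and 106 in control cultures, 218, 210.1 and 232 after withdrawal, 168, 174 and 161 at 2 h, 142, 153 and 169 at 4 h, and 107, 116 and 118 at 8 h. Its 3 withdrawal arrays were above every other array, its 2 h and 4 h arrays overlapped each other and lay above all control arrays, and its 8 h arrays overlapped the controls. The mean was 1.96-fold higher after withdrawal than in control cultures and 1.94-fold lower at 8 h than after withdrawal. Ccng1, a p53 target that encodes cyclin G, had 779, 758 and 822 in control cultures, 1423, 1451 and 1447 after withdrawal, 1165, 1122 and 1150.1 at 2 h, 753, 791 and 733 at 4 h, and 721, 732 and 703 at 8 h. Its withdrawal arrays spanned a narrow range far above the rest, and its 4 h arrays overlapped the controls. At 8 h all 3 arrays lay below all control arrays. The mean of Ccng1 was 1.83-fold higher after withdrawal than in control cultures and 2.005-fold lower at 8 h than after withdrawal.

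Sesn2, a sestrin that restrains mTORC1 when leucine is short, had mean intensities of 201 ± 7.39 in control cultures, 306 ± 20.7 after withdrawal, 230.4 ± 10.1 at 2 h, 177 ± 14.03 at 4 h, and 184 ± 6.38 at 8 h (SD, n = 3 each). Its 8 h arrays all lay below its control arrays. Castor2, a relative of the arginine sensor of mTORC1, was near control at 2 h, with means of 196 ± 3.56 in control cultures, 300.1 ± 40.5 after withdrawal, 193 ± 1.68 at 2 h, 171 ± 39.5 at 4 h, and 185 ± 27.2 at 8 h. Dapk2 was the latest of the 95 genes by the share of its 8 h difference present at 2 h, which was 3.61%. Its mean intensities were 47.8 ± 2.42 in control cultures, 77.4 ± 5.54 after withdrawal, 76.3 ± 4.44 at 2 h, 65.6 ± 6.59 at 4 h, and 53.4 ± 2.24 at 8 h, and its 8 h arrays stayed above all control arrays. Cdkn2d, an INK4-family inhibitor, stood at 342 ± 14.97 after withdrawal and 241 ± 18.1 in control cultures, and a second probe set of it gave 0.54 for withdrawal minus control and -0.46 for 8 h minus withdrawal. A second probe set of Aen did not share the pattern, with -0.01 and -0.33 for the same differences.

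A fixed list of growth arrest genes and cyclin-dependent kinase inhibitors gives the context of these genes. Of its 27 genes 21 were tested and 5 are among the 95 (Cdkn1c, Cdkn2d, Ccng1, Mxd4 and Gas6). Its median was 0.18 for withdrawal minus control and -0.27 for 8 h minus withdrawal, against 0.02 and -0.04 over all genes, and 6 of the 21 were higher by at least 0.5 after withdrawal and 0 lower by as much. The sixth was Cdkn1b (p27), at 0.62 for withdrawal minus control and -0.37 for 8 h minus withdrawal, so it missed the second threshold. Cdkn1a (p21) differed by -0.07 and Cdkn2a by -0.40 between withdrawal and control. The 5 genes among the 95 were chosen by the same 2 differences, so these list values are not independent of the rule. The list itself was set with earlier results of these data known. Of a list of 32 tested genes of the FOXO and PI3K-loss response, Ccng1 alone is among the 95, and Foxo3 met both thresholds but was left out by name. The median of that list was 0.16 for withdrawal minus control and -0.29 for 8 h minus withdrawal. Of 22 tested genes of the ATF4 amino acid stress response, Sesn2 was the only one among the 95, and the median of that list for withdrawal minus control was 0.07. None of 38 tested lysosome and autophagy genes and none of 14 HOX and TALE genes is among the 95.

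Receptors, ligands and signalling proteins were encoded by 20 of the genes. Outside the cell or at its surface act Kit, Gas6, Sfrp1, Prtg, Ptpru, Cd302 and Vsir. Inside act Rin2, Asap3, Rasa3, Rasgef1b, Prkar2a, Camkk1, Ppp1r26, Pip5k1b, Arrdc3, Tifa, Skap1, Baiap2l1 and Apbb1. Withdrawal minus control ranged from 0.53 to 1.04 in these genes, and their median was 0.76. At 8 h they stood between -0.32 and 0.32 relative to control.

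Kit, the receptor tyrosine kinase that marks spermatogonia as they begin to differentiate, had mean intensities of 95.6 ± 0.585 in control cultures, 165 ± 28.2 after withdrawal, 150.03 ± 4.71 at 2 h, 106 ± 6.86 at 4 h, and 108 ± 14.9 at 8 h (SD, n = 3 each). Its mean was 1.71-fold higher after withdrawal than in control cultures, and at 2 h its arrays still overlapped those of withdrawal. It was the only gene among the 95 out of 18 tested receptor tyrosine kinases, out of 16 tested genes of germ cell differentiation and meiosis, and out of 5 tested markers of differentiating and later germ cells. The other 4 of those markers were Sycp1, Sohlh1, Sycp3 and Crem, with withdrawal minus control of -0.24, -0.07, 0.04 and 0.40. Ret, the GDNF receptor itself, was at -0.19 for withdrawal minus control.

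Gas6 encodes the ligand of the TYRO3, AXL and MERTK receptors, and its mean intensities were 389 ± 33.8 in control cultures, 801 ± 63.3 after withdrawal, 668 ± 39.8 at 2 h, 607 ± 75.6 at 4 h, and 485 ± 35.6 at 8 h. It was 2.06-fold higher after withdrawal than in control cultures and 1.65-fold lower at 8 h than after withdrawal, and all its 8 h arrays were still above all control arrays. A second probe set of Gas6 gave smaller values, 0.22 for withdrawal minus control and -0.27 for 8 h minus withdrawal. Sfrp1, a secreted antagonist of Wnt signalling, read 52.6, 57.4 and 49.7 in control cultures, 98.7, 133 and 77.3 after withdrawal, 66.6, 86.04 and 87.2 at 2 h, 56.9, 52.6 and 57.9 at 4 h, and 47.1, 53.8 and 45.3 at 8 h. Its withdrawal arrays spread widely and overlapped the 2 h arrays, while its 4 h and 8 h arrays overlapped the controls. Prtg, an immunoglobulin-superfamily surface protein of the DCC family, read 29.3, 28.2 and 23.5 in control cultures, 49.4, 46.7 and 60.7 after withdrawal, 29.3, 35.9 and 31.7 at 2 h, 25.3, 39.2 and 26.8 at 4 h, and 22.6, 38.4 and 25.8 at 8 h. Its withdrawal arrays were above all other arrays, and the second arrays at 4 h and 8 h were the highest of those groups.

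Among small GTPase regulators, Rin2, an exchange factor for RAB5 that binds RAS, had 99.2, 81.5 and 81.7 in control cultures, 179, 208 and 154 after withdrawal, 116, 97.6 and 129 at 2 h, 65.5, 76.3 and 64.9 at 4 h, and 89.4, 102 and 99.2 at 8 h. Its withdrawal arrays were the highest, its 4 h arrays lay below all controls, and its 8 h arrays overlapped the controls again. Asap3, a GTPase-activating protein for ARF proteins, had 41.4, 40.6 and 42.9 in control cultures, 79.7, 77.8 and 70.8 after withdrawal, 48.4, 50.5 and 64.8 at 2 h, 40.8, 32.6 and 37.4 at 4 h, and 28.98, 40.97 and 35.6 at 8 h. No other array reached its withdrawal arrays, and its 4 h and 8 h arrays overlapped the controls at their upper ends. Rasa3, which inactivates RAS and RAP, had means of 253 ± 26.2 in control cultures, 389 ± 25.2 after withdrawal, 296 ± 8.12 at 2 h, 224 ± 36.8 at 4 h, and 205 ± 11.2 at 8 h, with all 8 h arrays below all controls. Rasgef1b, an exchange factor for RAS-family proteins, was likewise below all controls at 8 h, at 138 ± 8.66 against 160.5 ± 2.23 in control cultures.

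Prkar2a, a regulatory subunit of protein kinase A, had 837, 783 and 812 in control cultures, 1461, 1494 and 1346 after withdrawal, 1064, 1002 and 1048 at 2 h, 779, 653 and 719 at 4 h, and 722, 763 and 755 at 8 h. The withdrawal arrays were well above the rest, and all 4 h and 8 h arrays were below all control arrays. A second probe set of Prkar2a gave 0.42 for withdrawal minus control and -1.31 for 8 h minus withdrawal. Arrdc3, an alpha-arrestin that directs membrane receptors to ubiquitin ligases, had 473, 568 and 453 in control cultures, 914, 848 and 964 after withdrawal, 609.5, 553 and 549.8 at 2 h, 298, 425 and 333 at 4 h, and 540.1, 527 and 502 at 8 h. Its 4 h arrays were below every control array, and its 8 h arrays lay within the control range. Skap1, an adaptor best known from T cells, reached the low-value level on 4 arrays alone, 3 of them after withdrawal, with 12.3, 12.2 and 11.9 in control cultures, 19.8, 19.9 and 25.1 after withdrawal, 20.9, 15.5 and 12.5 at 2 h, 8.61, 9.49 and 6.65 at 4 h, and 11.8, 12.3 and 7.62 at 8 h. Its withdrawal and 2 h arrays overlapped, and its other differences lie under that level. Tifa, an adaptor that links TRAF proteins to NF-κB, had means of 197 ± 8.34 in control cultures, 334 ± 33.96 after withdrawal, 204 ± 8.93 at 2 h, 127 ± 10.7 at 4 h, and 165 ± 19.6 at 8 h and lay below all controls at 4 h and at 8 h.

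Of the remaining genes of this role, Camkk1, which activates other calmodulin-dependent kinases, was 1.68-fold higher after withdrawal than in control cultures, and Baiap2l1, a membrane-curving adaptor, 1.63-fold. Ppp1r26, a protein phosphatase regulator, had means of 31.9 ± 2.98 in control cultures, 50.1 ± 4.49 after withdrawal, 27.2 ± 2.97 at 2 h, 18.5 ± 2.38 at 4 h, and 29.6 ± 2.71 at 8 h and was lowest at 4 h. The values for Cd302, a C-type lectin, Ptpru, a receptor tyrosine phosphatase, Pip5k1b, a phosphoinositide kinase, and Apbb1, a partner of the amyloid precursor protein, were 1.69-, 1.55-, 1.46- and 1.45-fold for withdrawal over control.

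**Figure D2:**
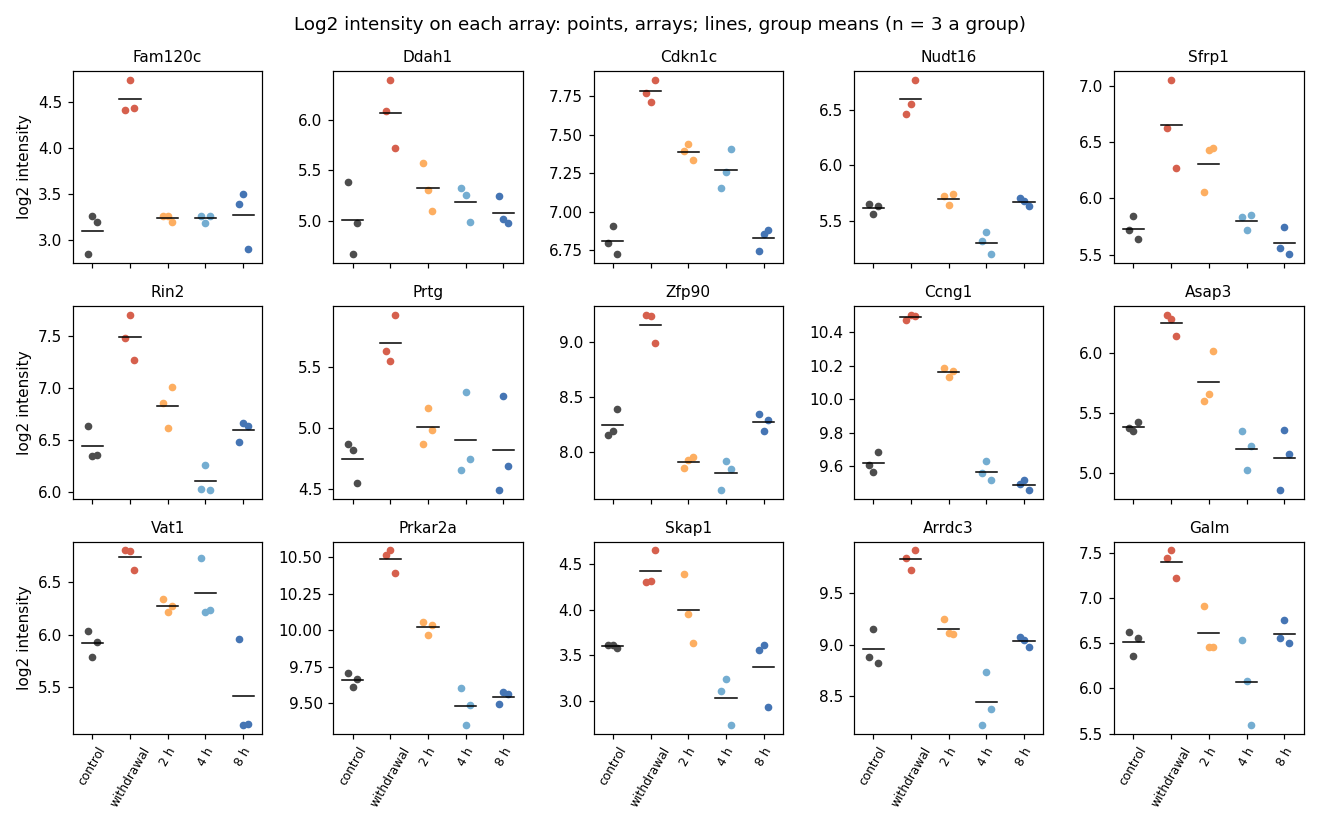
Log2 intensity on each array for the 15 genes whose smaller change of the 2 used in their choice was largest; points are arrays, lines are means of 3 arrays, and each panel has its own vertical axis that does not start at 0. The withdrawal mean stands highest in every panel, Rin2, Nudt16 and Arrdc3 are among the genes lowest at 4 h, and Vat1 has 1 array at 4 h at the level of withdrawal.

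Transcription, chromatin and RNA-processing proteins were encoded by 12 of the genes. These were the ETS factor Erg, the KRAB zinc-finger gene Zfp90, Trerf1, the SAGA subunit Supt3h, the histone modifiers Ehmt2 (G9a) and Hdac11, the SWI/SNF ATPase Smarca2, the MBT-domain gene Sfmbt1, the testis histone gene H2bc1, the recombination gene Rad52, the RNA decapping enzyme Nudt16 and the poly(A) polymerase Tent5c. In these genes the median share of the 8 h difference already present at 2 h was 73.5%, and at 4 h it was 109%. Differences between roles were not tested.

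Zfp90 showed one of the largest early differences, with 284, 291 and 335 in control cultures, 605, 600.1 and 507 after withdrawal, 231, 243 and 247 at 2 h, 202, 242 and 231 at 4 h, and 325, 292 and 312 at 8 h. Its 2 h and 4 h arrays all lay below all control arrays, and its 8 h arrays lay within the control range. Nudt16, which removes caps from RNA, read 50.4, 47.3 and 49.6 in control cultures, 88.2, 93.5 and 109 after withdrawal, 52.7, 49.8 and 53.5 at 2 h, 39.8, 42.2 and 36.7 at 4 h, and 52.2, 51.1 and 49.7 at 8 h. Its withdrawal arrays were the highest, its 4 h arrays were below every other array, and its 8 h arrays overlapped the controls. Erg had means of 32.1 ± 2.91 in control cultures, 62.6 ± 6.45 after withdrawal, 37.97 ± 1.71 at 2 h, 31.9 ± 6.92 at 4 h, and 42.98 ± 1.97 at 8 h, and at 8 h all its arrays were above all controls. Its 8 h minus control difference of 0.43 on the log2 scale was the highest of the 95. Ehmt2, a histone H3 methyltransferase, had means of 1332 ± 127 in control cultures, 1935 ± 55.3 after withdrawal, 1480.1 ± 42.5 at 2 h, 1532 ± 145 at 4 h, and 1325 ± 78.3 at 8 h, so it was close to control again at 8 h but not at 4 h. H2bc1, the testis form of histone H2B, had 28.9 ± 8.95 after withdrawal and 16.95 ± 1.28 in control cultures. For Smarca2 a second probe set gave a smaller withdrawal minus control of 0.05, against 0.77 on the probe set used. On the latter it read 55.4, 103 and 99.9 after withdrawal and 54.9, 54.01 and 38.8 in control cultures. Its first withdrawal array, the one with the low mesenchymal mean, was thus close to the control level.

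The start-proximal sequence of 73 of the 95 genes could be read from RefSeq windows of assembly GRCr8, which hold 300 bases, 250 before and 50 after the annotated gene start. The 73 genes had a median GC content of 63% and 20 CpG per window, against 61.7% and 22 over the 7648 tested genes with a window. Both strands were searched for 6 motifs, none of whose letters contain another. The forkhead motif GTAAACA was in the windows of 1.37% of the genes (Tbc1d17), against 2.51% of all. The E-box CACGTG was in 9.59% (7 genes: Pfkfb3, Ankrd37, Atosa, Mxd4, Tbc1d17, Ehmt2 and Aen), against 11.1% of all. The cAMP response element TGACGTCA was in 2.74%, against 3.74%, the AP-1 motif TGACTCA in 2.74%, against 3.48%, and the amino acid response element TGATGCAA in 0 of 73, against 0.562%. The largest difference was for the ETS motif CCGGAAGT, found in 2 of 73 genes (2.74%), against 759 of 7648 (9.92%). A match is a description of these letters and not a bound site.

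The windows of the 2 genes with the ETS motif are shown, each 5′ to 3′ on the strand of its gene, with the motif or its complement in capitals. Nudt16, 1 of the 15 genes given on every array, lies at chr8:114620712-114621011 on the minus strand, with the motif starting at -18 from the gene start. Mfsd4b1, shown after its values were seen as the only other holder, lies at chr20:44888386-44888685 on the minus strand, with the complement starting at -125.
Nudt16: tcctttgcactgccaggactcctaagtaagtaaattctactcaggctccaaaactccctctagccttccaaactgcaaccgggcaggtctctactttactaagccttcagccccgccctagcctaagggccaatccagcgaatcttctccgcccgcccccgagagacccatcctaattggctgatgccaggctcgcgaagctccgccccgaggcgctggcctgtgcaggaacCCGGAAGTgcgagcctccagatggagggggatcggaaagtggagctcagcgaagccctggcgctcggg
Mfsd4b1: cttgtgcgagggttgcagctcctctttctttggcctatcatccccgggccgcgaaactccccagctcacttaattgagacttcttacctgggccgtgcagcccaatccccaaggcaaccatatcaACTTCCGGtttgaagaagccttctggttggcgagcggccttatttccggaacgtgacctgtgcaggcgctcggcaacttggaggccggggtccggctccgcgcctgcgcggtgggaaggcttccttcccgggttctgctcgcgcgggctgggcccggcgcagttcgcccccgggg
The intensities of Nudt16 are given above, and Mfsd4b1, a membrane transporter gene, had means of 19.2 ± 1.15 in control cultures, 32.4 ± 6.70 after withdrawal, 20.1 ± 2.45 at 2 h, 17.4 ± 0.581 at 4 h, and 22.7 ± 2.97 at 8 h. Both genes were below their control mean at 4 h and above their 4 h level at 8 h on all arrays. All 8 h arrays were above all 4 h arrays in 18 of the 95 genes (18.9%) and in 13.4% of all genes. Whether the motif goes with this course was not tested.

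Metabolic and mitochondrial enzymes accounted for 15 genes. They were Ddah1, which breaks down methylated arginine, Galm, which interconverts forms of galactose, the sulfotransferase Chst8, the aldehyde dehydrogenases Aldh2 and Aldh4a1, the mitochondrial RNA polymerase Polrmt, Coq8a of coenzyme Q synthesis, the peroxisomal import factor Pex6, and the glycolytic regulator Pfkfb3. The others were the mitochondrial thiolase Acaa2, the methyltransferase Etfbkmt, the cobalamin-processing Mmachc, the cysteine desulfurase Nfs1, Mccc1 and the crystallin-related dehydrogenase Cryl1. Withdrawal minus control ranged from 0.50 to 1.06 in these genes, and 8 h minus control from -0.70 to 0.19.

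Ddah1 had 41.8, 25.5 and 31.5 in control cultures, 68.03, 84.2 and 52.8 after withdrawal, 47.6, 39.5 and 34.2 at 2 h, 40.1, 38.2 and 31.8 at 4 h, and 38.02, 32.5 and 31.5 at 8 h. Its withdrawal arrays were above all other arrays, although the 3 differed widely among themselves, and all replacement times overlapped the controls. The mean was 2.08-fold higher after withdrawal than in control cultures and 1.98-fold lower at 8 h than after withdrawal. Galm had 98.8, 82.2 and 94.2 in control cultures, 174, 184 and 149.8 after withdrawal, 121, 87.7 and 88.3 at 2 h, 92.9, 67.8 and 48.2 at 4 h, and 94.2, 108 and 90.7 at 8 h. Its withdrawal arrays were above the rest, its 8 h arrays overlapped the controls, and 2 of its 4 h arrays lay below them. Pfkfb3, whose product sets the level of a phosphofructokinase activator, was close to control from 2 h on, with means of 30.7 ± 0.402 in control cultures, 48.2 ± 6.62 after withdrawal, 31.9 ± 2.28 at 2 h, 32.4 ± 2.55 at 4 h, and 30.7 ± 0.431 at 8 h. Nfs1 was slower, with 325 ± 10.3 in control cultures, 462 ± 9.32 after withdrawal, 422 ± 16.4 at 2 h, 388 ± 28.3 at 4 h, and 325 ± 16.3 at 8 h, and reached the control level at 8 h. Etfbkmt was the earliest of the 95, since its difference from withdrawal at 2 h was 200.04% of that at 8 h. Its means were 28.9 ± 0.690 in control cultures, 50.03 ± 8.36 after withdrawal, 22.01 ± 2.65 at 2 h, 27.1 ± 4.32 at 4 h, and 33.1 ± 4.09 at 8 h, lower at 2 h than in control cultures and higher at 8 h. Cryl1 went furthest below control in this role, at 13.1 ± 0.720 at 8 h against 21.3 ± 0.317 in control cultures, with all 3 arrays below all controls. Its withdrawal arrays read 34.3, 38.2 and 20.9, and 1 of them was at the control level.

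Endoplasmic reticulum, membrane traffic and lysosomal proteins were encoded by 11 genes. Clcc1 is a chloride channel-like protein of the endoplasmic reticulum, Sdf2l1 and Rcn3 act in its lumen, Wfs1 is its membrane protein wolframin, and Ppt1 is a lysosomal thioesterase. Gbf1 activates ARF proteins at the Golgi, Trappc9 belongs to a tethering complex, Tbc1d17 inactivates RAB proteins, and Ferry3 belongs to an early endosome complex. Rilpl1, a RAB-binding protein, and Mfsd4b1 complete the group.

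Clcc1 had means of 681 ± 17.1 in control cultures, 1165 ± 71.4 after withdrawal, 871 ± 9.29 at 2 h, 315 ± 19.7 at 4 h, and 509 ± 19.8 at 8 h. At 4 h and at 8 h its arrays were all below all controls, and a second probe set gave 0.73 for withdrawal minus control and -0.96 for 8 h minus withdrawal. Sdf2l1, which acts with chaperones and is known to respond to unfolded proteins, was still near its withdrawal level at 2 h, with means of 332 ± 26.3 in control cultures, 491 ± 29.6 after withdrawal, 482 ± 16.97 at 2 h, 356 ± 15.8 at 4 h, and 323 ± 8.86 at 8 h. Only 4.01% of its 8 h difference was present at 2 h. Ppt1 was similarly late, with 213 ± 29.6 in control cultures, 346 ± 2.63 after withdrawal, 318 ± 16.4 at 2 h, 228 ± 4.85 at 4 h, and 211 ± 1.75 at 8 h. Wfs1 lay at the other end, with 14.99 ± 1.66 in control cultures, 21.3 ± 2.12 after withdrawal, 11.6 ± 2.85 at 2 h, 13.8 ± 0.157 at 4 h, and 13.9 ± 0.154 at 8 h, and its 2 h arrays were all below all controls, although most of these values are under the low-value level. Gbf1 had 446 ± 56.7 after withdrawal and 305 ± 18.9 in control cultures, and its 2 further probe sets had the same direction on both differences with withdrawal minus control of 0.38 and 0.18.

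Cytoskeletal, centrosomal and ciliary proteins were encoded by 9 genes. These were the intermediate filament protein Synm, the filamin-binding Rflna, the WAVE complex subunit Cyfip2, the kinesin light chains Klc3 and Klc4, the centrosome-associated Fam110b and Cep250, the ciliary gene Kiaa0586 (TALPID3) and the microtubule-associated Fsd1. Their level at 8 h relative to control ranged from -0.60 for Fam110b to 0.29 for Cyfip2. This was wider than the range of the growth arrest, p53-linked and mTORC1-restraining genes. The enzymes (-0.70 to 0.19) and the genes without a role (-0.71 to 0.27) had similar ranges.

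Synm had means of 61.95 ± 7.66 in control cultures, 99.8 ± 2.04 after withdrawal, 57.6 ± 3.98 at 2 h, 27.3 ± 5.40 at 4 h, and 49.4 ± 3.72 at 8 h, lowest at 4 h, where all its arrays were below all controls. Fam110b was also lowest at 4 h, with 244 ± 19.7 in control cultures, 350.3 ± 25.7 after withdrawal, 171 ± 7.25 at 2 h, 101 ± 11.3 at 4 h, and 161 ± 13.3 at 8 h, and was below all controls at 2 h, 4 h and 8 h. Rflna went low early and remained low, with 83.5 ± 14.2 in control cultures, 133 ± 11.3 after withdrawal, 68.3 ± 3.12 at 2 h, 60.96 ± 4.24 at 4 h, and 57.6 ± 3.99 at 8 h. Cyfip2 behaved otherwise, with 17.2 ± 1.87 in control cultures, 33.96 ± 5.34 after withdrawal, 30.5 ± 2.65 at 2 h, 20.6 ± 2.34 at 4 h, and 21.05 ± 1.53 at 8 h, so that its 8 h arrays stayed above all controls. Klc3 had 1 array at 8 h far below the others, with 29.2, 11.04 and 34.6 at 8 h against 48.8, 44.3 and 48.6 after withdrawal.

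The ubiquitin system was represented by the RING ligase Marchf9, the HECT ligase Hectd4 and the deubiquitinase Usp2, 1 of which (Usp2) was among 42 tested genes of a fixed list of ubiquitin ligases and deubiquitinases. Usp2 had means of 165 ± 2.71 in control cultures, 259 ± 24.3 after withdrawal, 222 ± 21.7 at 2 h, 173 ± 31.2 at 4 h, and 133 ± 13.3 at 8 h, and its 8 h arrays were all below all controls. Hectd4 had 72.6 ± 0.597 in control cultures, 118 ± 7.37 after withdrawal, 73.8 ± 0.0813 at 2 h, 80.1 ± 8.80 at 4 h, and 71.6 ± 8.64 at 8 h, with its largest step before 2 h.

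No role was assigned to the other 15 genes: Fam120c, Vat1, C15h14orf93, Zcchc18, Tmem130, Gnb1l, Ankrd37, Ikbip, Atosa, Cep15, Armh4, Mpped1, Ctxn1, Ydjc and the locus-number gene LOC102549726. Fam120c had the largest fold of the 95, with 7.21, 9.58 and 9.20 in control cultures, 21.3, 26.7 and 21.6 after withdrawal, 9.63, 9.64 and 9.16 at 2 h, 9.61, 9.11 and 9.64 at 4 h, and 10.5, 11.4 and 7.51 at 8 h. All 12 arrays other than those of withdrawal were under the low-value level of 16, so its 2.69-fold difference is measured against values near background and was 1.44-fold with values under 16 set to 16. Vat1 had 65.5, 55.2 and 61.1 in control cultures, 112, 112 and 98.3 after withdrawal, 80.97, 74.5 and 77.5 at 2 h, 106, 74.4 and 75.4 at 4 h, and 62.4, 35.2 and 35.6 at 8 h. Of its 4 h arrays 1 was at the level of withdrawal, and of its 8 h arrays 1 was at the level of control while the other 2 were far below. Tmem130 had means of 728 ± 65.4 in control cultures, 1117 ± 94.1 after withdrawal, 851 ± 29.7 at 2 h, 734 ± 42.8 at 4 h, and 689 ± 41.3 at 8 h. Among these 15 genes Zcchc18 and Cep15 ended lowest relative to control, with 8 h minus control of -0.71 and -0.60, and a second probe set of Cep15 had no such course, with -0.05 for withdrawal minus control and 0.09 for 8 h minus withdrawal.

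In all, 18 of the 95 genes had a further tested probe set, 19 probe sets in all. Of these, 17 had the same direction on both differences and 7 were also past both thresholds (those of Arrdc3, Chst8, Clcc1, Cyfip2, Fam110b, Klc3 and Zfp90). The other 77 genes rest on 1 probe set each. Of the 95 genes 85 read at least 16 on all 15 arrays, 10 read less on at least 1 array (Fam120c, Skap1, Marchf9, Cyfip2, H2bc1, Hdac11, Klc3, Ctxn1, Wfs1 and Cryl1), and in 5 of the 10 the control mean log2 intensity was under 4. With values under 16 set to 16, 92 of the 95 still met both thresholds. Skap1, Ctxn1 and Wfs1 did not, at 0.42, 0.37 and 0.38 for withdrawal minus control. Most of the 95 were also of low intensity among all named genes tested. By mean log2 intensity over all arrays, their median percentile was 16.8 (quartiles 8.2 and 32.7). Their median log2 SD was higher than that of all genes in each group, at 0.139 against 0.077 after withdrawal. The shares of all genes given here were not matched for intensity or scatter.

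How soon the levels came down after GDNF was returned could be read at 2 h and 4 h, whose arrays had no part in choosing the genes, although the withdrawal arrays they are set against had. All 95 genes had a lower mean at 2 h than after withdrawal, by a median of -0.43 on the log2 scale (range -1.28 to -0.02), against -0.05 over all 9002 genes. In 70 of the 95 (73.7%) all 2 h arrays lay below all withdrawal arrays, a pattern shown by 27.8% of all genes. At 4 h this held for 89 of 95 (93.7%), against 26.4% of all genes, and the median difference from withdrawal was -0.71. These comparisons share the withdrawal arrays with the rule, so the counts are not independent of how the genes were chosen.

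The share of the 8 h difference that was already present at 2 h had a median of 56.0% over the 95 genes, with quartiles of 35.6% and 88.6%. At 4 h the median was 91.7%, with quartiles of 74.9% and 127%. At least 75% was present at 2 h in 35 genes and under 25% in 13, and at 4 h at least 75% was present in 71 and at least 100% in 41. The earliest were Etfbkmt (200.04%), Wfs1 (147%), Zfp90 (141%) and Mfsd4b1 (135%). Wfs1 read at least 16 on only 4 arrays, so its share above 100% rests on differences under the low-value level. The latest were Dapk2 (3.61%), Sdf2l1 (4.01%), Cep15 (6.24%) and Cryl1 (8.70%). A share above 100% means that the level at 2 h was below that at 8 h.

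**Figure D3:**
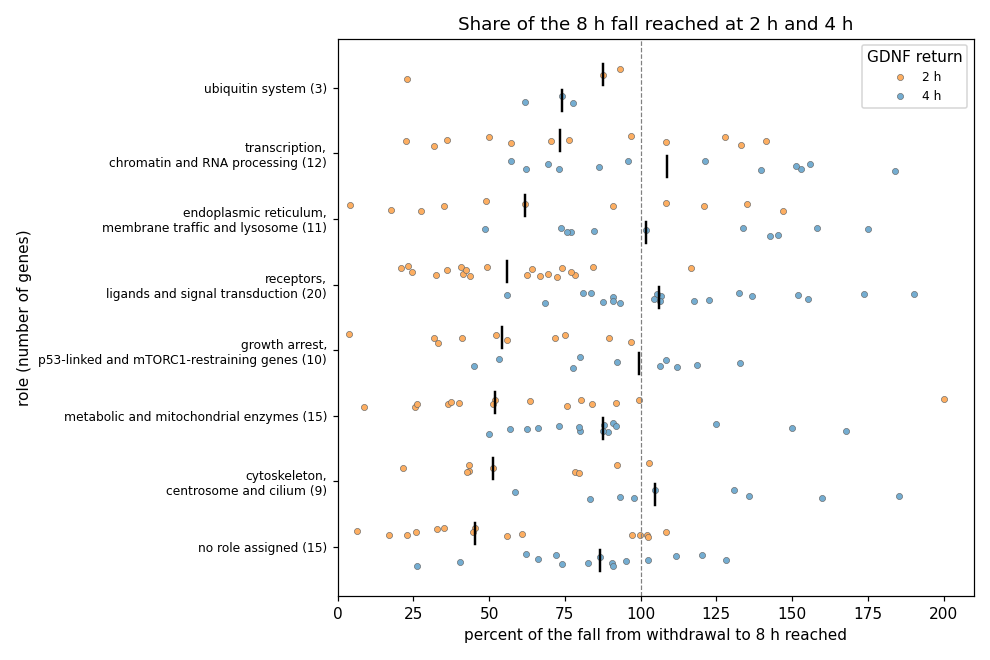
Share of each gene's difference between withdrawal and 8 h that was present at 2 h (orange) and at 4 h (blue), in percent, by role; points are genes, black bars are medians, and the dashed line marks 100%. At 2 h the medians run from 45.4% for genes without a role to 87.6% for the 3 ubiquitin genes, and single genes in most roles lie on either side of the line at 4 h.

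The step between 2 h and 4 h of GDNF return is the contrast in which neither group entered the differences of the rule. Both groups did enter the low-value filter and the choice of probe set. This step was tested with limma over all 15 arrays. Of the 95 genes 34 (35.8%) fell further at 4 h relative to 2 h (Benjamini-Hochberg adjusted p under 0.05), against 7.22% of the 9002 genes. In the other direction 0 of 95 passed, also at an unadjusted p under 0.05, against 8.52% of all genes called higher at 4 h. At an unadjusted p under 0.05, 54 of the 95 (56.8%) were lower at 4 h, against 15.1% of all genes, while 16% of all genes were higher. The median of 4 h minus 2 h was -0.27 over the 95 genes (range -1.47 to 0.30) and 0.00 over all genes, with 84 of the 95 below 0 and 11 above.

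The 34 genes included 13 of the 20 signalling genes, 5 of the 9 cytoskeletal genes and 4 of the 11 of endoplasmic reticulum and traffic. They also included 4 of the 10 growth arrest, p53-linked and mTORC1-restraining genes, 4 of the 15 enzymes and 3 of the 12 transcription and chromatin genes. Of the 15 genes without a role 1 was included, and of the 3 ubiquitin genes 0. The signalling genes were Prkar2a, Tifa, Arrdc3, Apbb1, Rin2, Skap1, Ppp1r26, Kit, Asap3, Rasa3, Pip5k1b, Camkk1 and Sfrp1. Of these Skap1 was under the low-value level on all 4 h arrays, and with values under 16 set to 16 it did not pass (log2 difference -0.13, limma adjusted p = 0.48), which left 33 of the 34. The cytoskeletal genes were Synm, Fam110b, Cyfip2, Fsd1 and Kiaa0586. Those of the growth arrest, p53-linked and mTORC1-restraining group were Ccng1, Sesn2, Cdkn2d and Mxd4. The others were Clcc1, Sdf2l1, Ppt1 and Ferry3, then Coq8a, Aldh2, Cryl1 and Acaa2, then Supt3h, Nudt16 and Trerf1, and Zcchc18.

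Clcc1 showed the clearest further fall, at 315 ± 19.7 at 4 h against 871 ± 9.29 at 2 h (SD, n = 3 each). Its log2 difference was -1.47 ± 0.06 (SE, limma adjusted p = 1.19e-09), which is 2.77-fold lower. Ccng1 fell by a smaller amount with little scatter, at 759 ± 29.7 at 4 h against 1146 ± 21.5 at 2 h, a log2 difference of -0.59 ± 0.04 (limma adjusted p = 4.58e-07). Prkar2a differed by -0.54 ± 0.06 (limma adjusted p = 3.65e-05), with no overlap between its 4 h and 2 h arrays. In the cytoskeletal group Synm fell to 27.3 ± 5.40 at 4 h, against 57.6 ± 3.98 at 2 h, a difference of -1.09 ± 0.13 (limma adjusted p = 5.23e-05). Fam110b, already below control at 2 h, had a further log2 difference of -0.76 ± 0.10 (limma adjusted p = 0.000101). The coenzyme Q gene Coq8a had 501 ± 19.6 at 4 h against 687 ± 39.6 at 2 h, a difference of -0.45 ± 0.06 (limma adjusted p = 0.000242). Tifa differed by -0.69 ± 0.10 (limma adjusted p = 0.000288). Sdf2l1, which had hardly moved from withdrawal at 2 h, was lower at 4 h by a log2 difference of -0.44 ± 0.07 (limma adjusted p = 0.000428).

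Other signalling and growth genes passed with larger p-values. Kit differed by -0.51 ± 0.12 (limma adjusted p = 0.00977), Sesn2 by -0.38 ± 0.07 (limma adjusted p = 0.00286), and Cdkn2d by -0.27 ± 0.08 (limma adjusted p = 0.0272). Cdkn1c did not pass, at -0.12 ± 0.08 (limma adjusted p = 0.38), and neither did Gas6, at -0.14 ± 0.09 (limma adjusted p = 0.337). In the growth arrest list, 7 of 21 tested genes were lower and 1 higher at 4 h than at 2 h, with Cdkn1a as the higher one. The FOXO and PI3K-loss list had 7 lower and 3 higher among 32, and the ATF4 list had 4 lower and 0 higher among 22. Of the lower ones in the ATF4 list, Atf4 and Ppp1r15a had a higher mean at 2 h than after withdrawal.

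**Figure D4:**
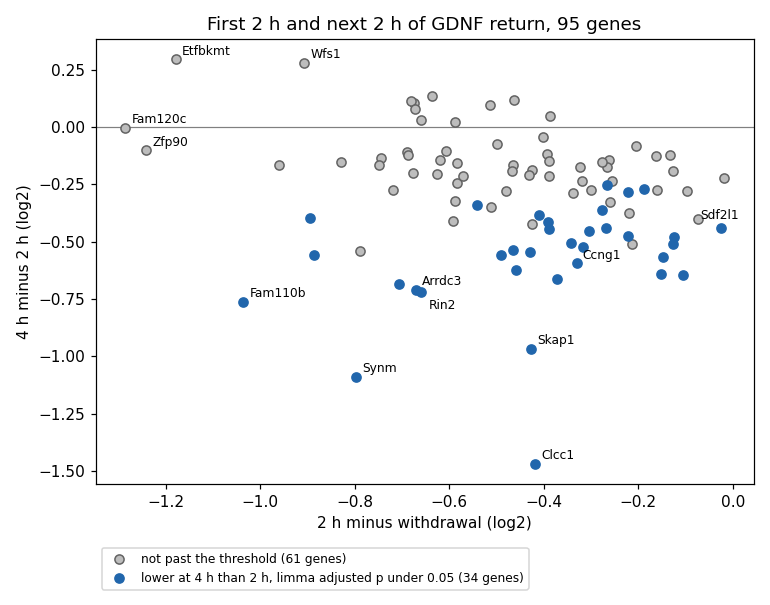
Log2 difference at 4 h minus 2 h (vertical) against 2 h minus withdrawal (horizontal) for the 95 genes; blue points passed limma's test for 4 h against 2 h and grey points did not. The 34 blue points all lie below 0, with Clcc1 lowest at -1.47, and the genes with the largest 2 h minus withdrawal differences, Fam120c, Zfp90 and Etfbkmt, are grey. The axes share the 2 h arrays.

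The mesenchymal marker mean stood in the same groups at 8.19 ± 0.26 at 4 h and 7.92 ± 0.12 at 2 h (log2, SD, n = 3 each). With that mean as a covariate 29 of the 95 genes were lower at 4 h than at 2 h, 28 of them among the 34, against 7.01% of all genes in the same fit, and 0 were higher, against 10.1%. Within groups, limma gave a slope on the marker mean above 0 for 0 of the 95 genes, against 2.72% of all genes, and below 0 for 1 (1.05%), against 0.333%. At an unadjusted p under 0.05 the numbers were 1 above and 9 below 0 (9.47%), against 7.32% and 9.02% of all genes. The 1 gene was Tmem130, with a slope of -0.33 ± 0.08 log2 per log2 unit of the marker mean (SE, limma adjusted p = 0.0286). This call was lost with the replicate number as a block, which left 0 genes, and when any of 5 arrays was left out, among them the first withdrawal array. The highest slope of the 95 was that of Smarca2, at 0.68 ± 0.27 (SE, limma adjusted p = 0.222), which did not pass.

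Between 4 h and 8 h the 95 genes had no common direction. The median of 8 h minus 4 h was -0.08, against -0.01 over all genes, with 54 lower and 41 higher at 8 h. All 8 h arrays were above all 4 h arrays in 18 genes (18.9%), against 13.4% of all genes. They were Nudt16, Rin2, Zfp90, Arrdc3, Clcc1, Tifa, Camkk1, Synm, Ppp1r26, Tp53inp1, Hdac11, Supt3h, Aldh4a1, Erg, Apbb1, Fam110b, Kiaa0586 and Mfsd4b1. In 34 of the 95 genes the 4 h mean was below both the 8 h mean and the control mean. The share of all genes with this course was not taken, so nothing is read from the count. Synm had this course most plainly by its means, with 61.95 ± 7.66 in control cultures, 27.3 ± 5.40 at 4 h and 49.4 ± 3.72 at 8 h. Arrdc3 had 498 ± 61.7, 352 ± 65.8 and 523 ± 19.2 in the same groups.

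Relative to control, the 95 genes at 8 h were spread around the starting level. The median of 8 h minus control was -0.04 (range -0.71 to 0.43), against -0.02 over all genes, and 76 genes lay within 0.25 of control. Quartiles were -0.15 and 0.06 over the 95 genes and -0.12 and 0.07 over all genes. A level near control at 8 h is thus not particular to the 95. All 8 h arrays were below all control arrays in 15 genes (15.8%), against 20.5% of all genes, and above them in 6 (6.32%), against 13% of all genes. Both groups also chose the genes, so no test is given. The 6 were Gas6, Cyfip2, Ikbip, Etfbkmt, Erg and Dapk2. The 15 were Ccng1, Prkar2a, Clcc1, Cd302, Tifa, Zcchc18, Synm, Rasgef1b, Rflna, Usp2, Rasa3, Gnb1l, Sesn2, Fam110b and Cryl1. The highest differences were 0.43 for Erg, 0.32 for Gas6, 0.29 for Cyfip2 and 0.27 for Ikbip. The lowest were -0.71 for Zcchc18, -0.70 for Cryl1, -0.60 for Fam110b and -0.60 for Cep15.

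**Figure D5:**
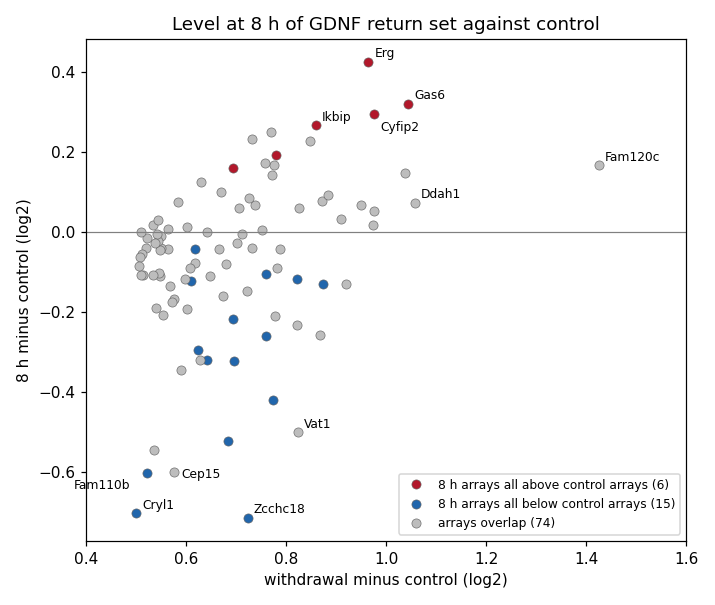
Log2 difference at 8 h minus control (vertical) against withdrawal minus control (horizontal) for the 95 genes; red and blue points have all 8 h arrays above or below all control arrays, and grey points overlap. The axes share the control arrays. Points scatter around 0, with 6 red ones led by Erg and Gas6 and 15 blue ones down to Zcchc18 at -0.71.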

How the data were processed

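RNA of 15 cultures, 3 in each of 5 groups, was measured on single-colour arrays. The deposited table holds an intensity per probe set, linear by its range, and the authors' tools were GCRMA and Partek 6.3, per the submitters' processing notes, which give no role, order or settings. GCRMA in general estimates background by probe sequence, so low intensities depend on that estimate.

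Intensities were taken to log2 without further normalization. Of 31099 probe sets, 57 controls were left out, and 15856 with a log2 intensity of at least 4 on at least 3 arrays were tested. Of all probe sets 20832 had 1 symbol and 436 had several. Only those with 1 symbol were named, from the platform annotation. Where a gene had several tested probe sets, that with the highest mean stood for it. Members and gene lists were chosen with earlier results of these data known. P-values come from limma 3.58.1 in R 4.3.3 (lmFit and eBayes with an intensity trend, 5 group means), two-sided, with Benjamini-Hochberg adjustment over the 15856 probe sets and a threshold of 0.05. Slopes used the mesenchymal marker mean of each array beside the groups. SDs refer to linear intensity, over 3 arrays, except where log2 is named.

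Values on every array are given for the 15 genes whose smaller change was largest, leaving out locus-number symbols. Others are named as past the 4 h against 2 h threshold (smallest adjusted p), nearest the threshold of the rule, highest or lowest at 8 h relative to control, earliest or latest, on a fixed list, or with disagreeing probe sets. Further examples for each role were chosen after their values were seen. The replicate numbers were not taken to pair the cultures. The correlation of deviations between same-numbered cultures was -0.138 to 0.389 over 30 pairs and above 0.1 in only 8. Different-numbered cultures reached -0.330 and 0.358. Same-numbered values were all above 0 for withdrawal with 4 h (0.389, 0.014 and 0.192) and for control with 4 h (0.238, 0.292 and 0.080). These values do not settle whether cultures were paired, so counts with a replicate block are also given. Alternatives were other thresholds, filters, normalizations, ways to choose probe sets, limma settings, a replicate block and leaving out each array.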

Additional observations from a re-analysis of the deposited data

How the results depend on the processing

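The number of genes depended most on the threshold of the rule, with 179 at 0.4, 22 at 0.75 and 1 at 1, against 95 at 0.5. Leaving out 1 array gave 88 to 121 genes, of which 77 to 93 were among the 95. The other 9 alternatives gave 65 (filter at log2 6) to 109 (no low-value filter), and median centring gave 85. The count lower at 4 h than at 2 h was 34 and ranged from 25 (no low-value filter) to 43 (array weights) over 17 alternatives, with 25 to 30 when 1 array was left out and 28 with only the 6 arrays compared. The share of all genes called lower moved with it, from 4.14% (without 2 h array 1, 25 of the 95) through 5.00% (no low-value filter) to 9.42% (array weights). The count higher at 4 h was 0 in all 17, against 6.01% to 11.4% of all genes. With the replicate number as a block 33 were lower, 32 of them among the 34, and 0 higher. The 8 genes given with smallest adjusted p kept their direction and their side of the threshold in each alternative that gave a value. The count of 1 gene past the threshold for the slope on the mesenchymal mean was 0 with the replicate block and 0 to 2 when 1 array was left out. It was 0 without control array 2, withdrawal array 1 or 3, 2 h array 3 or 4 h array 1, and 2 without withdrawal array 2 or 4 h array 3. Values under the low-value level limit what can be said of 10 genes, and the shares of all genes were not matched for intensity. Probe sets with several symbols or none are not analysed here.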
